A study of Mus musculus with 10 samples.

Results

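SHP-2, the tyrosine phosphatase encoded by Ptpn11, and the proteins it docks on were examined through their transcripts in myeloid cells of tumor-bearing mice. The set held 10 genes of the 55421 in the deposited count table, chosen by name and matched to their Ensembl identifiers through a GRCm38 annotation. They are Ptpn11, its paralog Ptpn6 (SHP-1), the scaffolds Gab1, Gab2 and Gab3, the adaptor Grb2, the exchange factor Sos1, the receptors Sirpa and Pecam1, and the ubiquitin ligase Cbl. All 10 had counts in every library and passed the filter on low counts in every comparison.

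SHP-2 carries a pair of SH2 domains, which bind phosphorylated tyrosines, in front of its catalytic domain. At rest the first SH2 domain blocks the catalytic cleft, and binding to phosphotyrosines of a docking protein opens the enzyme. The Gab scaffolds are phosphorylated after cytokine and growth factor receptors are engaged, reach the receptor through Grb2, and recruit SHP-2, which in most settings promotes Ras-ERK signaling. Inhibitory receptors such as SIRPα (Sirpa) and PECAM-1 (Pecam1) carry immunoreceptor tyrosine-based inhibitory motifs (ITIMs) that recruit SHP-1 and SHP-2 and, in macrophages, restrain phagocytosis and activation.

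RNA was sequenced in 4 groups of libraries, from cells of Shp2f/f and Shp2f/fLysMcre mice bearing MC17-51 fibrosarcomas, taken at day 15. Shp2f/f mice carry the floxed Ptpn11 gene without Cre, and Shp2f/fLysMcre mice carry it together with Cre under the lysozyme M promoter, which is active in granulocytes, monocytes and macrophages, so all 4 groups share the floxed allele. Myeloid-derived suppressor cells (MDSC) were taken from the spleen with magnetic beads (2 Shp2f/f and 2 Shp2f/fLysMcre libraries), and tumor-associated macrophages (TAM) were sorted from the tumors of the same mice as live CD45+CD11b+F4/80+Ly6G- cells (3 and 3 libraries). The MDSC are labelled GR-1+, and the study's methods describe the subset as polymorphonuclear and Ly6G+. The mice were adult, and whether a library pooled several mice, and which exons of Ptpn11 are removed, are not stated in the sources used here. The labels do not tie libraries to mice, so p-values measure the spread between these libraries. Total counts ran from 33262119 to 36541823 in MDSC and from 28844660 to 38222998 in TAM.

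One library stood apart. MDSC Shp2f/fLysMcre replicate 2 had a summed level of 551.1 CPM (read counts relative to library size, scaled between libraries by TMM) over 10 fibroblast and sarcoma genes, against 12.8 to 31.6 CPM in the other MDSC libraries, so results that rest on it are also given without it. The labelled cell types were checked against their markers. Most listed markers separated the cell types. In Shp2f/f, 7 of 8 neutrophil genes were called higher in MDSC and 1 in TAM. Of 8 macrophage genes, 7 were called higher in TAM. S100a8 had group means of 3331 and 8245 CPM in MDSC and of 55.1 and 79.4 CPM in TAM. C1qa had 30.4 and 44.1 CPM in MDSC and 1236 and 2102 CPM in TAM. In MDSC, however, the gene of the Ly6G antigen was low for a subset selected by it, at 8.92 to 33.2 CPM. The monocyte and macrophage receptor gene Csf1r was at 1031 to 1442 CPM against 1426 to 1696 CPM in TAM. Ly6g and Csf1r leave a purely polymorphonuclear identity in doubt, so the cells are called MDSC here. In TAM, the macrophage genes had sums of 8933 to 14076 CPM, and Ly6g, which the sort excluded, was at 0.0594 to 0.287 CPM, but the 8 neutrophil genes summed to 2425 to 4563 CPM, of which Mmp9 had 1946 to 4258 CPM and Csf3r 112.9 to 198.7 CPM. Xist was higher in Shp2f/fLysMcre than in Shp2f/f in both cell types (adjusted p = 0.000148 in MDSC and 1.09e-06 in TAM), and of the 4 Y-linked genes tested 3 were lower in MDSC and 4 in TAM. Each Shp2f/fLysMcre library held transcripts of both sexes. Xist was at 119.3 to 132.1 CPM in MDSC and 209.0 to 371.6 CPM in TAM, and the Y-linked Eif2s3y at 31.6 to 35.1 and 23.8 to 26.0 CPM. In Shp2f/f, Xist had 1 count in each MDSC library and was at 4.82 to 18.1 CPM in TAM. Eif2s3y was at 86.5 to 87.7 CPM in MDSC Shp2f/f and 69.5 to 72.1 CPM in TAM Shp2f/f. The study states that its experiments used males and females in equal numbers. Whether libraries pool male and female mice was not tested. The sex of the mice and the genotype cannot be told apart. In bulk RNA, fewer cells of a type and less RNA per cell cannot be told apart either.

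The start regions of 6 of the 10 genes were listed in the RefSeq promoter table used here (Ptpn11, Ptpn6, Gab1, Grb2, Sos1 and Cbl; Gab2, Gab3, Sirpa and Pecam1 were not listed). The 250 bases before the transcription start are shown for the deleted phosphatase, its paralog and the scaffold with the largest cell type difference, because the levels of these 3 carry the comparisons that follow. They are written 5′ to 3′ on the strand of the gene (minus for all 3), in GRCm38.p6, with motif matches in capitals. The regions are chr5:121191398-121191647 for Ptpn11, chr6:124738710-124738959 for Ptpn6 and chr8:80880520-80880769 for Gab1.
Ptpn11: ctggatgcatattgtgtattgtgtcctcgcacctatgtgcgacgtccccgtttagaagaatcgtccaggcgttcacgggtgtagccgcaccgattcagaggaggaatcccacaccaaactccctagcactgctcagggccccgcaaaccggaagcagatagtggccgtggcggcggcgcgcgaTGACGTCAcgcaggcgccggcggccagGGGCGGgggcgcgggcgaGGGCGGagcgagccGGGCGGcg
Ptpn6: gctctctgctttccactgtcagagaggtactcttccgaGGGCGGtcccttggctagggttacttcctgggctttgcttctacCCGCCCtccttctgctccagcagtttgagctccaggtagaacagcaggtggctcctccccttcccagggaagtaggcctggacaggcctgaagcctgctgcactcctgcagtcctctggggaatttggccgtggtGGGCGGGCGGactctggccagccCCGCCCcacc
Gab1: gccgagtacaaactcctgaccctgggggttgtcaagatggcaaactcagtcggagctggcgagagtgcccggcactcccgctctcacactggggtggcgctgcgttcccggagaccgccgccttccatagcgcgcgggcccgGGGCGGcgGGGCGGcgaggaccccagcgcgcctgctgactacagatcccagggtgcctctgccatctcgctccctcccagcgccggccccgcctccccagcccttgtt

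The motifs searched on both strands were the cyclic AMP response element (CRE, TGACGTCA), the GC box (GGGCGG), a PU.1 site (GAGGAAGT, named for the myeloid factor PU.1), the CCAAT box (CCAAT) and the TATA box (TATAAA). Ptpn11 held 1 CRE, which begins 67 bases before its start, and 3 GC boxes. A CRE was found in 1.55% of the 32851 listed promoter windows of the same length. Ptpn6 held 5 GC boxes, of which neighbouring matches overlapped, and Gab1 held 2. GC boxes were in the first listed window of 4 of the 6 members (66.7%) and in 32.7% of all windows, and 2.44% of all windows held a PU.1 site. Of the 8 windows listed for the 6 genes, 1 held a PU.1 site, the second window of Grb2, where it begins 56 bases before the start. Both Grb2 windows belong to starts inside the gene, 8669 and 9063 bases downstream of its annotated start. The region before that annotated start was not examined. The windows of the other listed genes lie within 40 bases of the annotated gene start. These matches describe letters in the windows and are not measured sites.

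Ptpn11 itself (chr5:121130533-121191397, minus strand) was examined first, since it is the targeted gene. In TAM, its level was 121.2, 125.2 and 120.9 CPM in the Shp2f/f libraries and 50.9, 54.2 and 53.9 CPM in the Shp2f/fLysMcre libraries. The groups did not overlap, and 43.3% of the Shp2f/f mean was left (122.4 ± 2.39 against 53.0 ± 1.82 CPM, SD, n = 3 each). The log2 fold change was -1.24 (SE 0.0386, adjusted p = 2.96e-09, edgeR quasi-likelihood test with Benjamini-Hochberg adjustment over all genes, used throughout). In MDSC, Ptpn11 was at 113.2 and 99.2 CPM in Shp2f/f and at 94.8 and 79.7 CPM in Shp2f/fLysMcre, a mean of 106.2 ± 9.88 against 87.3 ± 10.6 CPM (n = 2 each). The groups were close to each other without overlapping, and 82.2% of the Shp2f/f mean was left. The difference did not pass the test (log2 fold change -0.29, 95% interval -0.65 to 0.07, adjusted p = 0.361). It was -0.16 (adjusted p = 0.384) without MDSC Shp2f/fLysMcre replicate 2 and -0.46 (adjusted p = 0.0361) without replicate 1 of that group. The genotype effect in TAM minus that in MDSC was -0.92 on the log2 scale (SE 0.118, adjusted p = 0.000450). The counts are totals over the gene and do not show which exons the reads came from, so transcripts that lack the deleted segment are counted like intact ones.

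**Figure D1:**
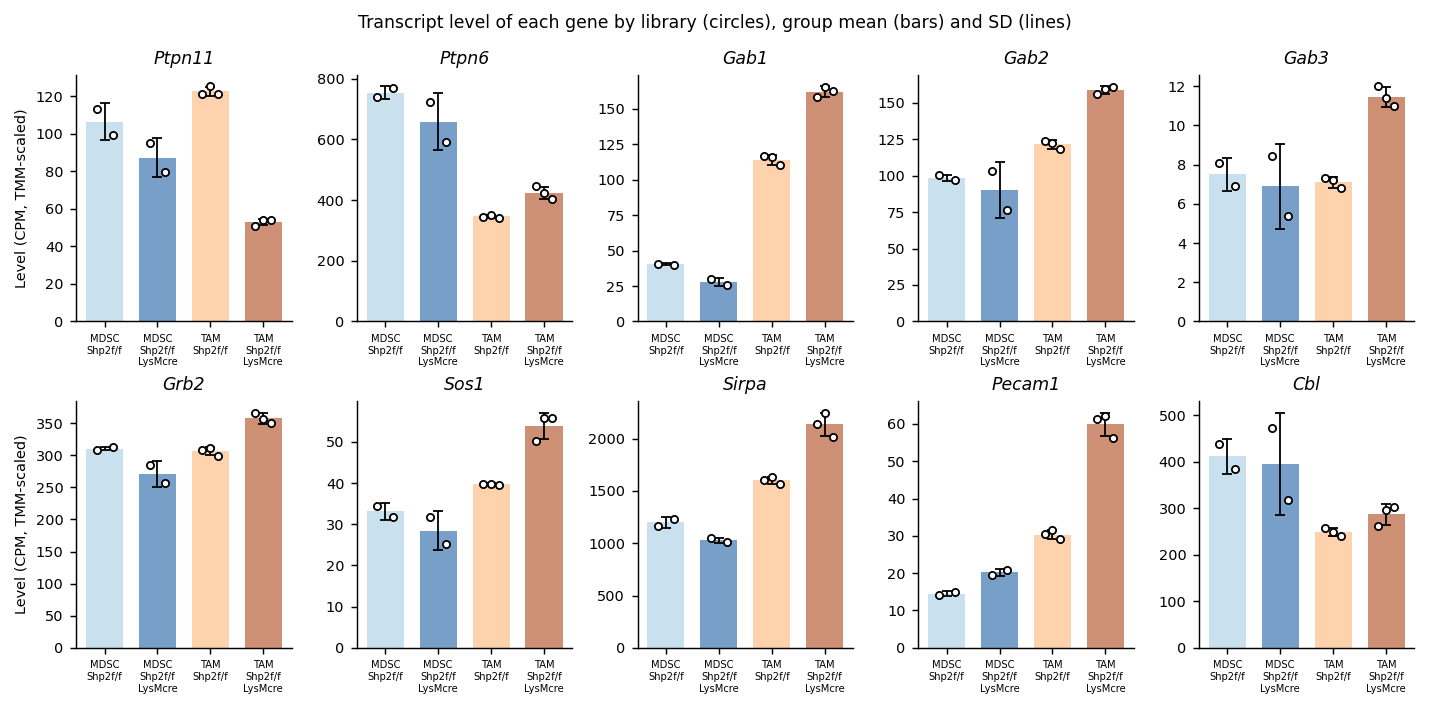
Transcript level of the 10 genes in each library, in CPM after TMM scaling (y axis, from 0, each gene on its own scale), for the 4 groups (x axis), with bars for group means, lines for the SD and circles for libraries. Ptpn11 was lowest in the 3 TAM Shp2f/fLysMcre libraries, at 50.9 to 54.2 CPM, while the other 9 genes were higher in these libraries than in TAM Shp2f/f.

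In TAM, the 9 partners moved the opposite way from Ptpn11. All 9 were higher in Shp2f/fLysMcre than in Shp2f/f, with a median log2 fold change of 0.38 and a range of 0.17 to 0.94, and no gene of the 10 overlapped between the genotypes. These counts stand against a wide background. In TAM, 50.2% of all 14446 genes tested were called (23.9% higher and 26.3% lower), and 57.9% did not overlap between the genotypes, with a median log2 fold change of -0.01 over all genes. Along with the members, the summed level of 8 macrophage genes was higher in Shp2f/fLysMcre, at 13242 to 14076 CPM against 8933 to 9336 CPM, and each of the 8 was called higher. Of 7 neutrophil genes tested 5 were called higher, among them Csf3r by 0.72 and Mmp8 by 0.95 (log2), and Mmp9 was called lower (-1.06). Of 6 T cell genes 5 were called lower, with sums of 8.76 to 10.1 CPM in Shp2f/f and 5.17 to 5.48 CPM in Shp2f/fLysMcre. The part of these shifts in the values of the members was not tested.

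Among the receptors, Pecam1 (chr11:106654217-106750628, minus strand), an adhesion molecule of leukocytes, platelets and endothelium with cytoplasmic ITIMs, had the largest rise. Its level in TAM was 30.4, 31.5 and 29.2 CPM in Shp2f/f and 61.3, 62.1 and 56.2 CPM in Shp2f/fLysMcre. The higher group was close to double the lower one, at 197.2% of the Shp2f/f mean (log2 fold change 0.94, SE 0.0494, adjusted p = 8.99e-08). Of 7 other endothelial genes tested, 2 were higher in the same comparison (Kdr by 0.39 and Cdh5 by 0.29, log2). The summed level of the 10 listed endothelial genes was 60.1 to 61.4 CPM in Shp2f/f and 73.4 to 78.4 CPM in Shp2f/fLysMcre, with Cdh5 at 5.78 to 8.76 CPM. Kdr alone was at 34.6 to 36.8 CPM in Shp2f/f and 46.3 to 49.7 CPM in Shp2f/fLysMcre. Over the TAM libraries, the endothelial genes Eng and Vwf were at 15.3 to 16.7 CPM and 2.01 to 2.81 CPM. Egfl7 and Esam were at up to 0.546 CPM, and Emcn, Tek, Tie1 and Cldn5 at up to 0.388 CPM. Of 6 platelet genes, Ppbp was at 145.6 to 158.2 CPM in Shp2f/f and 318.7 to 336.6 CPM in Shp2f/fLysMcre. Itgb3 went the other way, from 36.8 to 39.9 CPM to 19.3 to 20.3 CPM. Itga2b was at 0.600 to 1.36 CPM, and Gp1ba, Gp9 and Gp1bb were at or near 0, at up to 1 count in any TAM library. The part of the endothelial genes and of Ppbp in the Pecam1 value was not tested. Sirpa (chr2:129592835-129632228, plus strand), the receptor for CD47 on phagocytes, was at 1604, 1638 and 1568 CPM in Shp2f/f and at 2140, 2248 and 2021 CPM in Shp2f/fLysMcre. Its lowest Shp2f/fLysMcre library lay well above its highest Shp2f/f library (log2 fold change 0.38, SE 0.0366, adjusted p = 7.88e-06).

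The Gab scaffolds, whose phosphotyrosines bind the SH2 domains of SHP-2, rose together in TAM. Gab1 (chr8:80764438-80880519, minus strand) was at 116.3, 115.8 and 110.1 CPM in Shp2f/f and at 158.0, 165.4 and 162.7 CPM in Shp2f/fLysMcre (log2 fold change 0.47, SE 0.0383, adjusted p = 2.08e-06). Gab2 (chr7:97081586-97308946, plus strand) went from 123.5, 122.6 and 117.9 CPM to 155.9, 159.0 and 160.9 CPM (0.35, SE 0.0371, adjusted p = 1.53e-05). Each scaffold had 2 groups of 3 values with a clear gap between them. Gab3 (chrX:74966843-75085458, minus strand), a relative expressed in macrophages, was the scarcest, with 7.31, 7.20 and 6.79 CPM in Shp2f/f and 11.99, 11.38 and 10.99 CPM in Shp2f/fLysMcre (0.65, SE 0.0715, adjusted p = 1.94e-05). Gab3 is X-linked, and the genotypes differed in Xist, whose part in the Gab3 value was not tested.

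The adaptor and the exchange factor that link phosphorylated receptors to Ras were both higher in TAM of Shp2f/fLysMcre mice. Grb2 (chr11:115644045-115708597, minus strand), which bridges receptors, Gab scaffolds and Sos proteins, was at 308.7, 311.7 and 299.2 CPM in Shp2f/f and at 366.5, 357.2 and 349.6 CPM in Shp2f/fLysMcre (0.19, SE 0.0372, adjusted p = 0.00148). Sos1 (chr17:80393751-80480453, minus strand), which loads Ras with GTP, was at 39.8, 39.8 and 39.5 CPM and at 50.2, 55.7 and 55.8 CPM (0.40, SE 0.0498, adjusted p = 4.87e-05). Both had separate groups, and the Sos1 values of Shp2f/f were nearly identical to each other. Cbl (chr9:44142976-44234049, minus strand), which ubiquitinates activated tyrosine kinases and their adaptors, had the smallest rise, from 257.5, 248.8 and 241.6 CPM to 261.5, 296.9 and 304.0 CPM (0.17, SE 0.0563, adjusted p = 0.0267). The gap between its groups was narrow, since TAM Shp2f/fLysMcre replicate 1 lay just above the highest Shp2f/f library. The Cbl call was lost with scaling by total counts (0.07, adjusted p = 0.342), and also without TAM Shp2f/f replicate 2 (adjusted p = 0.0812) or 3 (0.0846), or without TAM Shp2f/fLysMcre replicate 2 (0.0981) or 3 (0.0795). Scaling by total counts shifted the median of all genes in TAM to -0.11, and relative to that median the values were 0.18 for Cbl, 0.20 for Grb2, 0.96 for Pecam1 and -1.23 for Ptpn11.

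In MDSC, none of the 10 genes was called by genotype (0 of 10, with 4.28% of 14806 genes called, 3.76% higher and 0.52% lower), and 2 of 10 were at an unadjusted p under 0.05, where 19.3% of all genes were. With the DESeq2 Wald test 1 of the 10, Gab1, was called, and with the replicate number as a block Gab1 (adjusted p = 0.000542) and Pecam1 (adjusted p = 0.00661) were. Both of these fits also called more genes over the whole table than the test used throughout. The spread between replicates was wider than in TAM, with a biological coefficient of variation of 0.189 against 0.0595. Of the 10, 6 did not overlap between the genotypes, and 48.9% of all genes did not. The median log2 fold change of the 9 partners was -0.20, with a range of -0.55 to 0.47. In these libraries 8 neutrophil genes summed to 8387 to 8502 CPM in Shp2f/f and 18775 to 22420 CPM in Shp2f/fLysMcre, and 8 macrophage genes to 2317 to 2402 CPM and 1729 to 1950 CPM. Of the 8 neutrophil genes 3 were called higher, and of the 8 macrophage genes 0 were called. Group means went from 3331 to 8245 CPM for S100a8 and from 3212 to 9961 CPM for S100a9. For Csf3r they went from 669.8 to 781.5 CPM and for Mmp8 from 753.8 to 812.9 CPM. The part of these differences in the values of the members was not tested.

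Gab1 was the member with the lowest unadjusted p in MDSC. Its level was 40.8 and 40.0 CPM in Shp2f/f and 29.6 and 25.8 CPM in Shp2f/fLysMcre (log2 fold change -0.55, 95% interval -0.85 to -0.24, adjusted p = 0.0808). Without MDSC Shp2f/fLysMcre replicate 2 it was -0.44, and without replicate 1 of that group it was -0.69. These were the ends of its range over the 4 MDSC libraries left out singly. Pecam1 was at 14.1 and 14.9 CPM in Shp2f/f and at 19.5 and 20.9 CPM in Shp2f/fLysMcre (0.47, interval 0.18 to 0.77, adjusted p = 0.103). Without replicate 2 of Shp2f/fLysMcre it was 0.43 and without replicate 1 it was 0.49, with a range of 0.43 to 0.52 over the 4 libraries left out singly. Cdh5, which marks endothelium, was at 0.346 to 0.639 CPM in MDSC Shp2f/f and at 0.569 to 2.33 CPM in MDSC Shp2f/fLysMcre, and the endothelial list summed to 23.0 CPM in replicate 1 and 42.2 CPM in replicate 2 of Shp2f/fLysMcre, against 22.8 to 23.1 CPM in Shp2f/f. In fits without 1 MDSC library, the library left alone in its group is assumed to vary like the other group. Whether Gab1 and Pecam1 pass the test there depended on which library was left out.

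The 2 MDSC Shp2f/fLysMcre libraries differed from each other in several partners. Cbl was at 473.9 CPM in replicate 1 and 318.0 CPM in replicate 2, on either side of the 439.3 and 385.7 CPM of Shp2f/f. Gab2 was at 103.4 and 76.7 CPM, around the 100.1 and 96.9 CPM of Shp2f/f, and Gab3 was at 8.43 and 5.36 CPM, around 8.10 and 6.90 CPM. For these 3 genes the direction turned without replicate 2, to 0.20 for Cbl, 0.075 for Gab2 and 0.17 for Gab3, with none called. Ptpn6 was at 738.7 and 768.7 CPM in Shp2f/f and at 724.3 and 592.4 CPM in Shp2f/fLysMcre. Sirpa was at 1163 and 1235 CPM and at 1047 and 1010 CPM, and Grb2 at 308.5 and 312.3 CPM and at 284.8 and 256.8 CPM. These 3 were lower in both Shp2f/fLysMcre libraries than in either Shp2f/f library, by amounts that did not pass the test (adjusted p of 0.548, 0.378 and 0.448). Sos1 was at 34.5 and 31.7 CPM and at 31.8 and 25.1 CPM, with overlap. Without replicate 2 the log2 fold change of Ptpn6 went from -0.20 to -0.054, of Sos1 from -0.23 to -0.056, of Grb2 from -0.20 to -0.12 and of Sirpa from -0.23 to -0.19. Without MDSC Shp2f/fLysMcre replicate 1, which leaves the library with the high fibroblast and sarcoma genes alone in its group, 6 of the 10 were called (Ptpn11, Ptpn6, Gab1, Gab2 and Sos1 lower and Pecam1 higher), where 27.2% of all genes were.

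**Figure D2:**
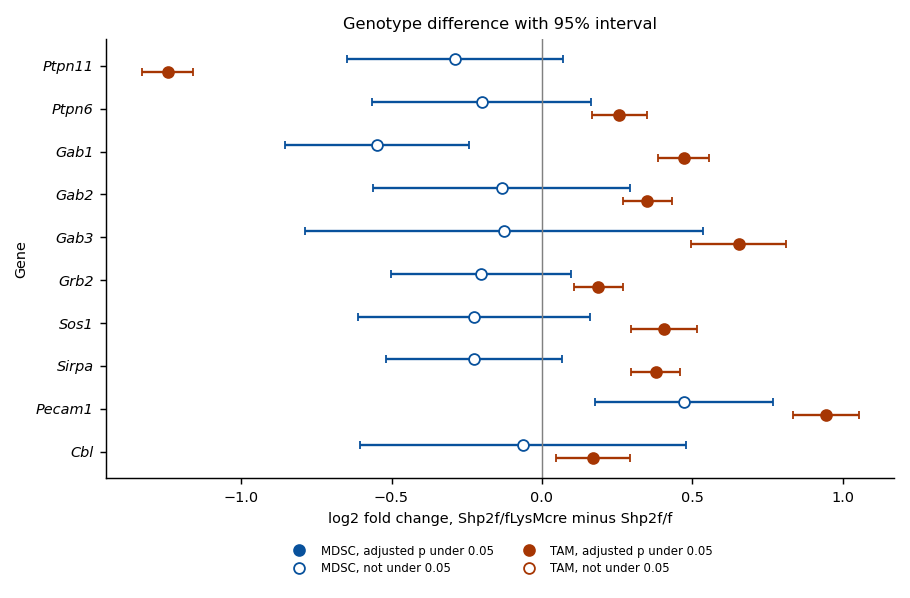
Genotype difference of each gene (y axis) as a log2 fold change, Shp2f/fLysMcre minus Shp2f/f (x axis), in MDSC (blue) and TAM (brown), with lines for 95% intervals and filled circles for an adjusted p under 0.05. In TAM all 10 circles are filled, 9 of them to the right of 0, and in MDSC none is filled and Pecam1 is the one gene to the right of 0.

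The genotype effects of the cell types were then compared with each other over all 10 libraries. This fit used a shared spread per gene for both cell types, although the spread was wider in MDSC than in TAM. It treated the libraries as independent, although both cell types came from the same mice. The difference, TAM minus MDSC, was called for 9 of the 10 genes, 8 higher and Ptpn11 lower, where 24.9% of 16581 genes were called (12.2% higher and 12.7% lower). The same 9 were at an unadjusted p under 0.05, where 37.5% of all genes were. It was 1.05 for Gab1 (SE 0.0940, adjusted p = 5.58e-05), 0.66 for Sos1, 0.63 for Sirpa, 0.50 for Pecam1, 0.49 for Ptpn6 and 0.42 for Grb2 on the log2 scale, with adjusted p-values up to 0.0151. Gab1 had the largest of these differences. Its genotype effect was above 0 in TAM and below 0 in MDSC, as were those of Sos1, Sirpa, Ptpn6 and Grb2. For Gab2 (0.52, adjusted p = 0.0287) and Gab3 (0.81, adjusted p = 0.0342) the call was lost when any single library other than MDSC Shp2f/fLysMcre replicates 1 and 2 was left out, with adjusted p between 0.0518 and 0.109 for Gab2 and between 0.0561 and 0.150 for Gab3. Ptpn6 lost its call without MDSC Shp2f/f replicate 1 (adjusted p = 0.0533) or 2 (0.0872). Cbl was not called (0.26, 95% interval -0.19 to 0.72, adjusted p = 0.384), and was called without MDSC Shp2f/fLysMcre replicate 1 (0.59, adjusted p = 0.00210). Without MDSC Shp2f/fLysMcre replicate 2, 9 of the 10 were called, where 25.4% of 17497 genes were. Gab3 then went from 0.81 to 0.52, Gab2 from 0.52 to 0.31, Ptpn6 from 0.49 to 0.35, Gab1 from 1.05 to 0.95 and Ptpn11 from -0.92 to -1.05.

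SHP-1, encoded by Ptpn6 (chr6:124720707-124738714, minus strand), is the closest relative of SHP-2 and the main ITIM phosphatase of hematopoietic cells. In TAM, Ptpn6 rose from 343.7, 351.8 and 342.1 CPM in Shp2f/f to 444.9, 422.8 and 403.8 CPM in Shp2f/fLysMcre (log2 fold change 0.26, SE 0.0416, adjusted p = 0.000360). The levels of both phosphatases were compared per exonic length, as RPKM (CPM per kilobase of exon). The ratio of Ptpn6 to Ptpn11 in TAM was 7.58, 7.52 and 7.57 in Shp2f/f and 23.4, 20.9 and 20.04 in Shp2f/fLysMcre. In MDSC it was 17.4 and 20.7 in Shp2f/f and 20.4 and 19.9 in Shp2f/fLysMcre. The 3 TAM Shp2f/f libraries lay below all others, and of the TAM Shp2f/fLysMcre libraries 1 lay within the MDSC values and 2 above them. The log2 ratio was higher in TAM Shp2f/fLysMcre by 1.501 (SE 0.0666, exact permutation p = 0.1, two-sided, the smallest that 3 against 3 allows), and in MDSC the difference was 0.08 (SE 0.125, exact permutation p = 1, the smallest possible being 0.333).

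The sum of both phosphatase transcripts in TAM was 139.8 ± 2.18 RPKM in Shp2f/f and 158.3 ± 7.14 RPKM in Shp2f/fLysMcre (SD, n = 3 each). In MDSC it was 283.2 ± 6.25 and 246.6 ± 34.7 RPKM (n = 2 each), with 271.2 RPKM in Shp2f/fLysMcre replicate 1 alone. Ptpn11 made up 11.7% of the sum in each TAM Shp2f/f library and 4.10% to 4.75% in TAM Shp2f/fLysMcre, and 4.61% to 5.42% over the 4 MDSC libraries. Thus SHP-2 transcripts were the minor share of this pair in each of the 10 libraries.

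**Figure D3:**
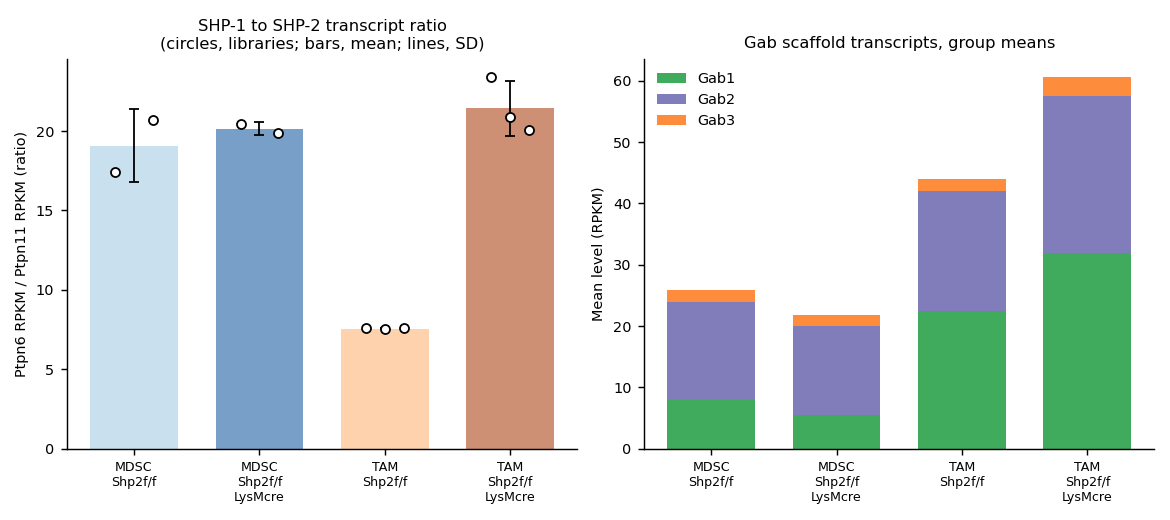
Left, the ratio of Ptpn6 to Ptpn11 transcripts, each per exonic length (y axis, from 0), in each library (circles) of the 4 groups (x axis), with bars for means and lines for the SD. The 3 TAM Shp2f/f libraries lie at 7.52 to 7.58 and all others at 17.4 or above. Right, the group mean level of the Gab transcripts in RPKM (y axis) stacked for Gab1, Gab2 and Gab3, with sums of 25.8, 21.8, 43.9 and 60.6 RPKM from left to right.

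The make-up of the Gab family differed between the cell types. In MDSC Shp2f/f, Gab2 was the leading scaffold, with 61.8% of the summed RPKM, followed by Gab1 with 30.8% and Gab3 with 7.46%. In TAM Shp2f/f, Gab1 led with 51.1%, followed by Gab2 with 44.8% and Gab3 with 4.15%. In Shp2f/fLysMcre, Gab1 made up 25.0% in MDSC and 52.7% in TAM. The sum was 25.8 and 21.8 RPKM in MDSC and 43.9 and 60.6 RPKM in TAM, for Shp2f/f and Shp2f/fLysMcre. In MDSC Shp2f/fLysMcre replicate 1 alone, Gab1 made up 23.5% of a sum of 24.8 RPKM. These shares come from group means unless stated and were not tested.

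Between the cell types, TAM and MDSC of Shp2f/f mice differed in 8 of the 10 genes, 6 higher and 2 lower in TAM, where 78.8% of 15659 genes differed (40% higher and 38.8% lower). The same 8 were at an unadjusted p under 0.05 (80.1% of all genes) and did not overlap between the cell types (86% of all genes). Cell type is joined to tissue and to the isolation method in this design, and these cannot be told apart. Gab1 was 2.82-fold higher in TAM (log2 difference 1.49, SE 0.0486, adjusted p = 2.93e-09) and Pecam1 2.09-fold (1.06, SE 0.0638, adjusted p = 2.53e-07). Sirpa (0.42), Gab2 (0.30), Sos1 (0.26) and Ptpn11 (0.20, adjusted p = 0.0112) were also higher. The Ptpn11 call was lost without TAM Shp2f/f replicate 2 (adjusted p = 0.0505). Ptpn6 was 2.18-fold lower in TAM (-1.13, SE 0.0438, adjusted p = 1.05e-08) and Cbl 1.66-fold lower (-0.73, SE 0.0624, adjusted p = 3.34e-06). Gab3 and Grb2 did not pass the test, with 95% intervals of -0.32 to 0.15 and of -0.12 to 0.08.

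In the Shp2f/fLysMcre mice, 9 of the 10 genes differed between the cell types (7 higher and 2 lower in TAM), where 63.5% of 15741 genes did (29.8% higher and 33.7% lower). All 10 did not overlap between the cell types, as 77.7% of all genes did not. This comparison shares its libraries with the genotype comparisons. Gab1 was 5.88-fold and Pecam1 2.98-fold higher in TAM, and Sirpa 2.09-fold. Ptpn11 was lower in TAM (-0.71, SE 0.0957, adjusted p = 0.00134), the opposite direction from Shp2f/f, and Ptpn6 was also lower (-0.63, SE 0.106, adjusted p = 0.00327). Cbl was not called (-0.45, adjusted p = 0.0690), and without MDSC Shp2f/fLysMcre replicate 2 it was (-0.74, adjusted p = 0.000443). Gab3 (0.74, adjusted p = 0.0237) lost its call without any one of the 3 TAM Shp2f/fLysMcre libraries, with adjusted p from 0.0569 to 0.0742. Without MDSC Shp2f/fLysMcre replicate 2, Gab1 was at 2.43 on the log2 scale, Gab2 at 0.60, Gab3 at 0.43 and Ptpn11 at -0.86, and all 10 were called, where 65.4% of 16313 genes were.

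**Figure D4:**
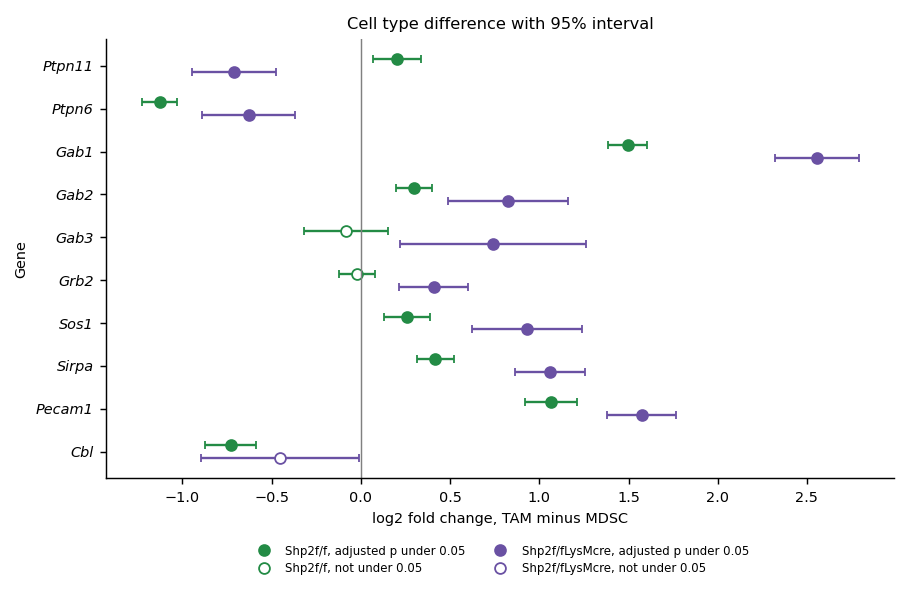
Cell type difference of each gene (y axis) as a log2 fold change, TAM minus MDSC (x axis), in Shp2f/f (green) and Shp2f/fLysMcre (purple), with lines for 95% intervals and filled circles for an adjusted p under 0.05. Gab1 lies farthest to the right in both genotypes, at 1.49 and 2.56, and Ptpn11 lies at 0.20 in Shp2f/f and -0.71 in Shp2f/fLysMcre.

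The order of the 4 groups followed from these levels. For Ptpn11 it ran from TAM Shp2f/f (122.4 CPM) through MDSC Shp2f/f (106.2) and MDSC Shp2f/fLysMcre (87.3) to TAM Shp2f/fLysMcre (53.0), with no overlap between neighbouring groups, although the MDSC genotypes did not pass the test. Gab1, Gab2, Sos1 and Sirpa ran from TAM Shp2f/fLysMcre through TAM Shp2f/f and MDSC Shp2f/f to MDSC Shp2f/fLysMcre, and the MDSC neighbours overlapped for Gab2 and Sos1. Pecam1 had the same order but for MDSC Shp2f/f, which was lowest. For Ptpn6 and Cbl both MDSC groups lay above both TAM groups, and for Cbl the MDSC groups overlapped. Gab3 and Grb2 were highest in TAM Shp2f/fLysMcre, and MDSC Shp2f/f and TAM Shp2f/f overlapped for both, as did TAM Shp2f/f and MDSC Shp2f/fLysMcre for Gab3.

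Per exonic length, Sirpa, Ptpn6 and Grb2 were the most abundant transcripts of the set in all 4 groups. In TAM Shp2f/f they were at 326.5 ± 7.15, 123.4 ± 1.86 and 105.1 ± 2.25 RPKM. In MDSC Shp2f/f, Ptpn6 came before Sirpa, at 269.0 ± 7.57 and 244.1 ± 10.3 RPKM, ahead of Grb2 at 106.4 ± 0.941 RPKM. Ptpn11 was at 16.3 ± 0.318 RPKM in TAM Shp2f/f, close to Gab2 at 19.7 ± 0.489 and Cbl at 20.2 ± 0.643 RPKM, and fell to 7.07 ± 0.243 RPKM in TAM Shp2f/fLysMcre, below Pecam1 at 9.61 ± 0.511 RPKM. Gab3 was the lowest in every group, at 1.77 to 2.94 RPKM. The exons of Ptpn6 and Gab1 overlap antisense genes over 6.96% and 5.23% of their bases, and the strand setting of the counting is not given in the sources used here, but these antisense genes had 42 and 418 counts over all 10 libraries.

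Genes whose pattern over the 10 libraries was most like that of each phosphatase and of Sirpa were sought among the 8849 genes averaging 10 CPM or more, by Pearson correlation of log2 CPM. For Ptpn11 they were Ptpn22 (0.980), Ccdc91 (0.976) and Serinc5 (0.976). For Ptpn6 they were Irak4 (0.999), Akt2 (0.998) and Emb (0.997), and for Sirpa they were Fcgr2b (0.995) and Ms4a6d (0.994). The 10 points fall into 4 groups of 2 cell types, so these values describe group levels.

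Around the set, 7 lists of related genes were examined. In MDSC, 2 of the 87 listed genes tested were called (2.3%, against 4.28% of all genes): Siglecg, an inhibitory lectin receptor with ITIMs, was higher (log2 fold change 1.10, SE 0.145, adjusted p = 0.0234, 7.32 ± 0.214 to 15.8 ± 1.498 CPM), and Sirpb1b was lower (-0.69, SE 0.111, adjusted p = 0.0360). Without MDSC Shp2f/fLysMcre replicate 2 they were at 1.20 and -0.61 and still called, and without either MDSC Shp2f/f library both calls were lost (adjusted p from 0.627 to 0.788). In TAM, the calls by list are set against the 23.9% higher, the 26.3% lower and the median of -0.01 over all genes. Of 18 other receptors with ITIMs or related ITSM motifs that recruit SHP-1 or SHP-2, 11 rose, 4 fell and 3 were not called, with a median log2 fold change of 0.31. Cd22 rose from 18.0 ± 0.502 to 43.4 ± 2.08 CPM (1.23, SE 0.0512, adjusted p = 2.03e-08) and Cd300a from 52.8 ± 1.54 to 93.2 ± 4.10 CPM (0.78, SE 0.0433, adjusted p = 1.36e-07), while Mpzl1 (-0.24) and Clec12a (-0.16) fell. Cd22 is a lectin receptor best known from B cells, and the 5 B cell genes summed to 4.06 to 4.50 CPM in TAM Shp2f/f and 10.2 to 11.4 CPM in TAM Shp2f/fLysMcre. Their part in the Cd22 value was not tested.

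Among the other nonreceptor tyrosine phosphatases, of 14 tested in TAM, 3 rose, 7 fell and 4 were not called, with a median of -0.22. Ptpn22, a phosphatase of Src family kinases, fell from 91.8 ± 2.71 to 61.0 ± 0.806 CPM (-0.63, SE 0.0373, adjusted p = 2.24e-07), and Ptpn7, which acts on MAP kinases, fell from 48.4 ± 0.538 to 33.7 ± 1.59 CPM (-0.56, SE 0.0467, adjusted p = 2.48e-06). Ptpn1, the insulin receptor phosphatase PTP1B, rose from 183.8 ± 4.51 to 247.5 ± 4.98 CPM (0.39, SE 0.0367, adjusted p = 5.95e-06), and Ptpn18 rose by 0.34. Of 10 kinases that phosphorylate docking tyrosines, 5 rose and 2 fell (median 0.12). The myeloid Src family kinase Fgr rose (0.36, SE 0.0402, adjusted p = 2.20e-05), and Src fell from 155.1 ± 3.44 to 94.5 ± 5.04 CPM (-0.75, SE 0.0424, adjusted p = 1.55e-07).

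In the Ras-ERK relay, 7 of 17 genes rose and 3 fell in TAM (median 0.07). The scaffold Ksr1 rose by 0.74 (SE 0.0825, adjusted p = 2.17e-05) and Mapk3, which encodes ERK1, by 0.32 (SE 0.0546, adjusted p = 0.000528), while Mras, a partner of the SHOC2 phosphatase complex, was at -0.58 and Rasa2, a Ras GTPase-activating protein, at -0.21, both called lower. Of 18 other adaptors and scaffolds, 7 rose and 3 fell (median 0.05), with Irs2 (0.54, SE 0.0416, adjusted p = 1.36e-06) and Grap2 (0.47, SE 0.0729, adjusted p = 0.000278) higher and Pik3r1 (-0.29) and Lat2 (-0.19) lower. Of 7 Cbl relatives and partners, 3 rose and 2 fell (median 0.12), namely Cd2ap (0.27) and Ubash3b (0.16) among the higher and Sh3kbp1 (-0.16) among the lower. Of the 4 SIRP relatives and CD47, 3 rose and 0 fell (median 0.28), with Sirpb1a at 0.37 and Sirpb1c at 0.28. The Sirpb1 genes are near-identical to one another and similar to Sirpa, so the division of reads among them is uncertain.

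**Figure D5:**
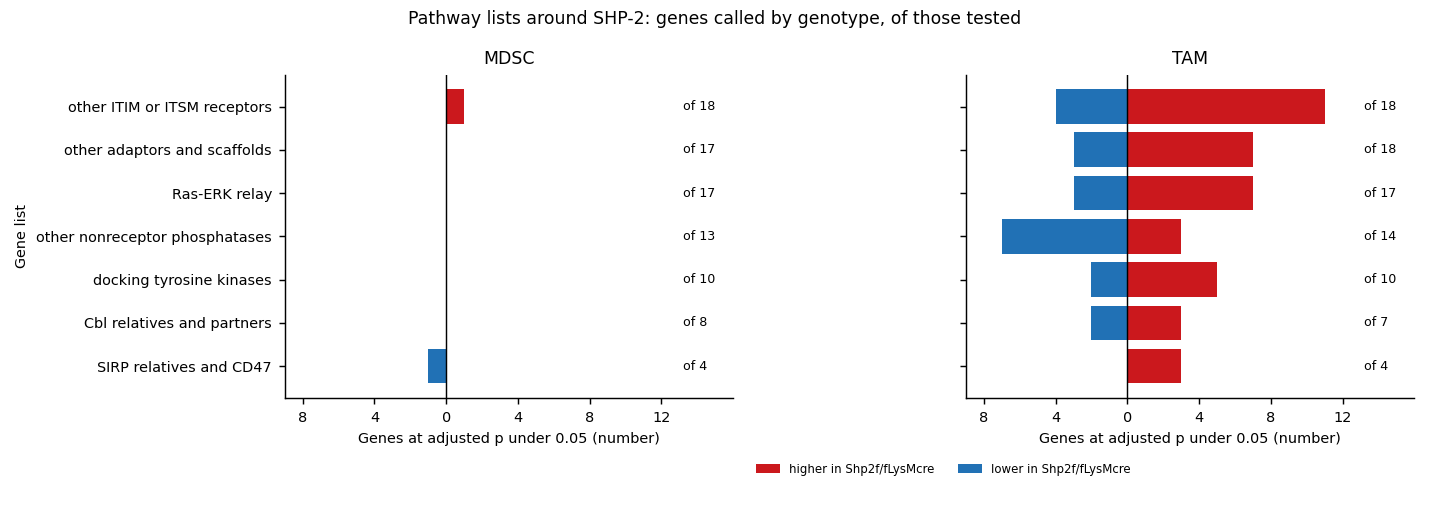
Number of genes at an adjusted p under 0.05 by genotype (x axis) in each of 7 lists (y axis), higher in Shp2f/fLysMcre to the right (red) and lower to the left (blue), in MDSC and TAM, with the number tested at the right edge. In TAM the receptors with ITIMs or ITSMs had 11 higher and 4 lower, and the other phosphatases 3 higher and 7 lower, and in MDSC 2 genes were called over all lists.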

How the data were processed

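RNA from 10 libraries was sequenced by the study as stranded poly(A) libraries in paired-end reads of 42 nt on an Illumina NextSeq. Per the labels, the authors used FastQC 0.11.5, Cutadapt 2.5, STAR 2.7.3a, featureCounts of Subread 1.6.2 and the GRCm38 genome. The strand setting and the treatment of reads with several matches are not given in the sources used here. The authors deposited raw counts, whole numbers of reads per gene that are not normalized, and these were used. A normalized table was not used here. Groups came from the sample titles.

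Symbols came from GENCODE vM21, which matched 99.67% of the identifiers. The quasi-likelihood F test of edgeR 4.0.16 (R 4.3.3) was applied to the counts (filterByExpr with a minimum count of 10, TMM scaling, Benjamini-Hochberg adjustment, called under 0.05), for genotype within each cell type, for the difference of both effects, and for cell type within each genotype. SEs were taken from the log2 fold change and its F statistic. Levels are CPM with TMM scaling over all 10 libraries, divided by the union exonic length in kilobases for RPKM. The ratio of Ptpn6 to Ptpn11 was tested by an exact permutation test. The fits were tested on simulated data.

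All 10 members were named, and from each list, in each genotype comparison, up to 2 called genes of largest change in each direction, if they averaged 5 CPM or more. Some genes that these rules select are not reported here. The members and lists were chosen with earlier results of these data known. Marker genes were named where they bear on a result. Alternatives were DESeq2 1.42.0, its size factors, total-count scaling, a single fit of all 10 samples, limma 3.58.1 voom with weights per cell type, the replicate number as a block, the unfiltered table, and leaving out each library. No pair of replicates agreed within sampling noise (chi-square per degree of freedom of 4.46 to 58.1).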

Additional observations from a re-analysis of the deposited data

Results flagged for a closer look

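The genotype effect differed between TAM and MDSC, by the test of the difference itself, for 9 of the 10 genes, where 24.9% of 16581 genes were called. The calls of Gab2, Gab3 and Ptpn6 depended on single libraries, and those of Gab2 and Gab3 also on the scaling. The effect in TAM minus that in MDSC, on the log2 scale, was 1.05 for Gab1, 0.81 for Gab3, 0.66 for Sos1, 0.63 for Sirpa, 0.52 for Gab2, 0.50 for Pecam1, 0.49 for Ptpn6, 0.42 for Grb2 and -0.92 for Ptpn11. Gab1, Ptpn6, Sirpa and Grb2 were lower in both MDSC Shp2f/fLysMcre libraries than in either MDSC Shp2f/f library. None of these MDSC differences passed the test. In TAM, all 3 Shp2f/fLysMcre libraries lay above the highest Shp2f/f library for these genes, as for the other partners.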

How the results depend on the processing

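In TAM, the number of the 10 genes called by genotype was 9 or 10 under every alternative, with Ptpn11 lower and the rest higher, and Cbl was the one call lost, also in the one fit of all 10 samples (adjusted p = 0.281). Over all genes, that fit called 4837 in TAM against 7257, and leaving out single libraries gave 6176 to 7317. In MDSC, 0 of 10 were called, against 1 with DESeq2 (Gab1), 2 in the one fit of all 10 samples (Gab1 and Pecam1) and 0 to 6 without single libraries. Over all genes, MDSC calls numbered 633, against 1216 with DESeq2, 130 with no filter on low counts, 2666 in the one fit and 1 to 4406 without single libraries. The difference of the effects was called for 9 of 10, against 7 with total-count scaling (Gab2 and Gab3 lost) and 6 to 10 without single libraries, with 4132 calls over all genes against 2446 to 7023. In the difference, total-count scaling shifted the median of all genes to -0.18, and split the calls into 1234 higher and 3132 lower against 2030 and 2102. In TAM it gave 2342 higher and 5227 lower against 3452 and 3805, and for cell type in Shp2f/fLysMcre 3696 and 6561 against 4689 and 5301, at a median of -0.26. Directions turned in MDSC without Shp2f/fLysMcre replicate 2 for Gab2 (0.075), Gab3 (0.17) and Cbl (0.20), with ranges over single libraries left out of -0.40 to 0.075, -0.53 to 0.17 and -0.42 to 0.20, and without Shp2f/f replicate 1 for Cbl (0.029). Between cell types in Shp2f/f the direction of Gab3 turned without MDSC replicate 1 (range -0.20 to 0.039). None of the turned values was called. The cause was not tested. The log2 difference of the ratio of Ptpn6 to Ptpn11 was 1.44 to 1.55 in TAM and -0.04 to 0.21 in MDSC without single libraries.

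The replicate numbers were not shown to pair libraries. Same-numbered TAM libraries of the genotypes had correlations of -0.0827, 0.0644 and 0.0343 between their deviations from the group means, and 2 of 6 correlated best with their own number. In MDSC, with 2 libraries in each group, the correlation was 0.174. With the replicate number as a block, 2 of the 10 were called in MDSC (Gab1 and Pecam1; 2674 of all genes), 10 in TAM, 9 in the difference, and 8 and 7 between the cell types in Shp2f/f and Shp2f/fLysMcre, where Gab3 (adjusted p = 0.0564) and Grb2 (0.0791) were lost and 6803 of all genes were called against 9990. It changed no other call of a member. With 2 libraries in each MDSC group, single libraries decide which members pass there.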
